A study of Arabidopsis thaliana with 9 samples.

Results

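Roots fixed last during a parabolic jet flight were compared with roots fixed first during the same flight. The comparison took the 3 arrays of the last-actuated tube against the 3 of the first-actuated tube, 6 of the 9 arrays in the series, and used the difference of mean log2 values for each of the 16722 probe sets that the platform annotation pairs with exactly 1 gene. The 3 ground control arrays were set beside them to show which of the in-flight groups lay away from the ground level.

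All 3 groups were whole roots of Arabidopsis thaliana seedlings aged 10 days, in the Wassilewskija (WS) background, grown in constant light. Every seedling, ground controls included, carried the transgene pCaMV35S:14-3-3κ:GFP, in which a viral promoter active in most plant cells drives a 14-3-3 adaptor protein fused to green fluorescent protein. An untransformed line was not analysed here, so none of the values below speaks to the transgene. Seedlings sat on moist tissue in Kennedy Space Center fixation tubes, closed devices that release the fixative RNAlater when actuated, and the roots were cut from the shoots after fixation. In-flight tubes were carried in a flight suit and a team member held the ground tube. By the treatment protocol, one in-flight tube was actuated while the jet accelerated at low altitude, before the climb and the parabola, and the other after the parabola. The design text instead places the in-flight actuations after microgravity had ended and shortly after level flight was regained. The flight stage that separates the groups is therefore not settled, and they are called here only by the order of actuation.

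Each group came from the roots of a single tube, divided into 3 pools. The p-values below therefore rest on variation among pools that shared a tube. Tube and group cannot be told apart.

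RNAlater stops transcript turnover, so each tube records the transcripts present at its own moment of fixation. In plant roots, touch, wounding and cold switch on short-lived transcripts of transcription factors and small proteins, many of which decline again soon afterwards. Sugar supply sets a slower programme: when sugar is short, the kinase SnRK1 and bZIP transcription factors raise genes for amino acid breakdown, nitrogen recycling and autophagy, and plentiful sugar represses the same genes. Roots depend on sugar that the shoot makes.

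Between the in-flight groups 1123 probe sets were called, 6.72% of those tested, at an adjusted p under 0.05 (limma with Benjamini-Hochberg adjustment). They stood for 1120 distinct genes. Of these probe sets, 596 were higher in last-actuated roots (3.56%) and 527 lower (3.15%). Differences of at least 2-fold numbered 107 upward (0.64%) and 116 downward (0.694%). In all 1123 the in-flight arrays were fully separated, as they were in 21.8% of all probe sets tested, and 19.6% had an unadjusted p under 0.05. With probe sets of several genes included, 1177 of 17481 were called (6.73%). Leaving out last-actuated replicate 3 lowered the count to 689, the fewest for any array left out, and leaving out ground control replicate 2 gave the most, 1064. Against the same ground arrays, first-actuated roots had 815 calls (4.87%), 380 higher (2.27%) and 435 lower (2.6%), and last-actuated roots had 303 (1.81%), 157 higher (0.939%) and 146 lower (0.873%). These comparisons share arrays with each other and with the in-flight comparison, so their counts are not independent.

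Of the called probe sets, 59 had both in-flight means under the lowest array median, a log2 value of 3.27, and 145 had at least 1 such mean. Values that low are called dim below, and the size of a dim difference is uncertain. Only 153 called probe sets carried a gene symbol, and for the rest the locus identifier is given. Where a locus without a symbol is counted in a gene list, its membership rests on general knowledge of the family or response. In whole-root RNA, fewer cells of a type and less RNA per cell cannot be told apart for any gene below.

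For most called genes the first-actuated mean was further from the ground mean than the last-actuated mean was. The position of the ground mean was computed on a scale on which 0 is the first-actuated mean and 1 the last-actuated mean. Over the 1123 called probe sets the median position was 0.68, and in 774 (68.92%) the ground mean lay nearer the last-actuated mean. The share was 72.82% among genes higher in last-actuated roots (434 of 596) and 64.52% among those lower (340 of 527).

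By class, the ground mean was within 0.25 of the last-actuated mean in 376 probe sets (33.48%) and within 0.25 of the first-actuated mean in 133 (11.84%). It lay between those zones in 495 (44.08%), beyond the last-actuated mean in 75 and beyond the first-actuated mean in 44. The count of 376 fell to 223, 248 and 235 when last-actuated replicates 1, 2 and 3 were left out in turn, as fewer probe sets were called, 787, 752 and 689. The share nearer the last-actuated mean then lay at 63.8%, 67.6% and 68.5%. These positions describe probe sets that were chosen for the difference between the in-flight groups, and they carry no test.

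**Figure D1:**
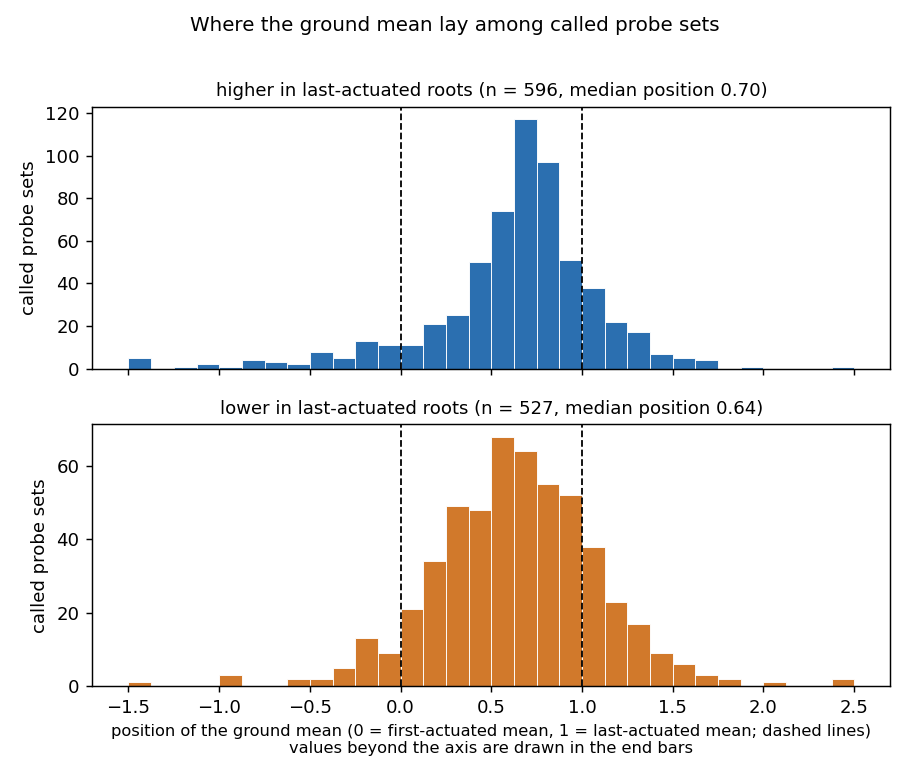
Histograms of the position of the ground mean for called probe sets higher (upper panel) and lower (lower panel) in last-actuated roots. The horizontal axis runs from the first-actuated mean at 0 to the last-actuated mean at 1 (dashed lines), and the vertical axis counts probe sets. Both histograms peak between the lines on the side of the last-actuated mean, with medians of 0.70 and 0.64.

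Most measured genes of a sugar-repressed list were higher in last-actuated roots. A list of sugar-repressed genes and targets of SnRK1 and bZIP factors held 45 loci. Only 12 of them were measured, of which 8 were called higher and 0 lower. Other lists of loci were also measured in part. These included 18 of 43 loci for hypoxia, 10 of 41 for jasmonate and 12 of 38 for auxin. For abscisic acid and dehydration 8 of 29 were measured, and for gravity signalling 6 of 16. Over all probe sets with 1 gene, 3.56% were called higher and 3.15% lower, and every list below is to be read against these shares. The median difference of the sugar-repressed list was 0.77 on the log2 scale, against -0.00 over all probe sets with 1 gene. MCCB, a subunit of the mitochondrial enzyme that breaks down leucine, was at 8.55, 8.59 and 8.50 on the ground arrays, 7.78, 7.36 and 7.51 on the first-actuated arrays and 9.09, 8.87 and 9.07 on the last-actuated arrays. All 3 first-actuated arrays lay below, and all 3 last-actuated arrays above, every ground array. The difference was 1.46 ± 0.12 (SE), a 2.75-fold higher level in last-actuated roots (adjusted p = 9.95e-05). BZIP53, a bZIP factor whose messenger RNA is translated less when sucrose is high, was higher by 0.48 ± 0.09 (adjusted p = 0.0103). The loci AT3G15450, AT3G15630 and AT1G21400 were higher by 1.01 ± 0.08, 0.90 ± 0.08 and 1.32 ± 0.14. AT3G15450 was a bright one, at 11.11, 11.09 and 11.06 on the ground arrays, 10.37, 10.20 and 10.26 on the first-actuated arrays and 11.26, 11.22 and 11.36 on the last-actuated arrays. Its groups did not overlap, and the first-actuated arrays were further from ground than the last-actuated ones.

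EXO, which encodes a cell surface protein of the sugar and brassinosteroid response, PPDK, a pyruvate-converting enzyme of nitrogen remobilisation, and ATL8, a RING-type ubiquitin ligase gene, were the other members called, at 0.88 ± 0.17, 0.66 ± 0.13 and 0.96 ± 0.24. The 4 measured members not called were HIS1-3 (-0.49), AT1G68670 (0.08), AT3G61260 (-0.06) and AT2G05540 (0.06). Of the 8 calls, 5 stood in every alternative fit that included the gene, which is what every alternative means below. The count was 6 without first-actuated replicate 2, without first-actuated replicate 3 or without last-actuated replicate 2. Outside the list, AKINBETA1, which encodes a regulatory subunit of SnRK1 itself, was at 9.83, 9.84 and 9.71 on the ground arrays, 9.15, 9.02 and 9.24 on the first-actuated arrays and 9.96, 9.83 and 9.70 on the last-actuated arrays. Its first-actuated arrays were the low ones, and its ground and last-actuated arrays overlapped. It differed by 0.69 ± 0.10 (adjusted p = 0.00262).

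Some enzymes that feed branched-chain amino acids into mitochondrial respiration were called higher. Of 10 measured genes of this pathway, a list drawn up after the called genes had been read, 5 were higher in last-actuated roots and 0 lower. The share called higher over all probe sets was 3.56%. The list median was 0.66. ETFQO passes electrons from this breakdown to ubiquinone, and its values were 8.89, 9.24 and 9.09 on the ground arrays, 7.90, 7.79 and 7.70 on the first-actuated arrays and 9.34, 9.21 and 9.41 on the last-actuated arrays. First-actuated arrays were the low ones, and ground and last-actuated arrays overlapped. ETFQO differed by 1.53 ± 0.11 (adjusted p = 4.89e-05), and ALDH6B2, the methylmalonate semialdehyde dehydrogenase of valine breakdown, by 1.21 ± 0.11. The other called members were MCCB and AT1G21400, given above, and AT1G50110, at 0.84 ± 0.14. AT1G50110 departed from the pattern of the others. It stood at 7.03, 6.99 and 6.47 on the ground arrays, 7.86, 7.85 and 7.85 on the first-actuated arrays and 8.63, 8.80 and 8.66 on the last-actuated arrays, so it was higher than ground in both in-flight groups, by 1.02 at the first actuation and 1.86 at the last. Those not called were D2HGDH (0.47), ETFALPHA (-0.15), AT4G16800 (0.24), AT2G26800 (0.13) and AT4G20930 (0.02). All 5 calls stood in every alternative.

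Nitrogen recycling and autophagy had more higher than lower calls. Among 10 genes of amide and ureide breakdown and amino acid exchange, also listed after the calls had been read, 4 were higher and 1 lower, with a median of 0.28. ASPGB1, an asparaginase, differed by 1.01 ± 0.18, AAH, an allantoate-degrading amidohydrolase, by 0.99 ± 0.11, and MGL, the methionine gamma-lyase, by 0.71 ± 0.13. PPDK was the fourth, and AlaAT1, an alanine aminotransferase, was lower, at -0.40 ± 0.09. Those of AAH and ASPGB1 stood in every alternative, and the count was 3 without first-actuated replicate 2, last-actuated replicate 2 or last-actuated replicate 3.

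Of the 9 ATG8 genes, whose ubiquitin-like products coat autophagosomes, ATG8E and ATG8H were higher and 0 lower, with a median of 0.24. ATG8E was at 8.91, 8.99 and 8.96 on the ground arrays, 8.43, 8.14 and 8.37 on the first-actuated arrays and 9.07, 9.08 and 9.42 on the last-actuated arrays, and ATG8H at 9.14, 9.15 and 8.96 on the ground arrays, 8.26, 8.34 and 8.59 on the first-actuated arrays and 9.07, 9.04 and 9.58 on the last-actuated arrays. In both, the first-actuated arrays lay below every other array. They differed by 0.88 ± 0.12 and 0.83 ± 0.15 (adjusted p = 0.00176 and 0.00873), in every alternative. The other 7 lay between -0.18 (ATG8D) and 0.26 (ATG8F). VPS46.2 and VPS60.1, subunits of the ESCRT machinery that sorts membrane proteins for the vacuole, were higher by 0.38 ± 0.10 and 0.42 ± 0.11 among 14 such genes listed after the calls had been read. Neither stood when ground control replicate 1 or ground control replicate 2 was left out. SDP1, the lipase that opens the breakdown of stored oil, was higher by 0.44 ± 0.10. Its call was lost under the replicate block and without first-actuated replicate 2 or 3 or last-actuated replicate 1 or 3.

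**Figure D2:**
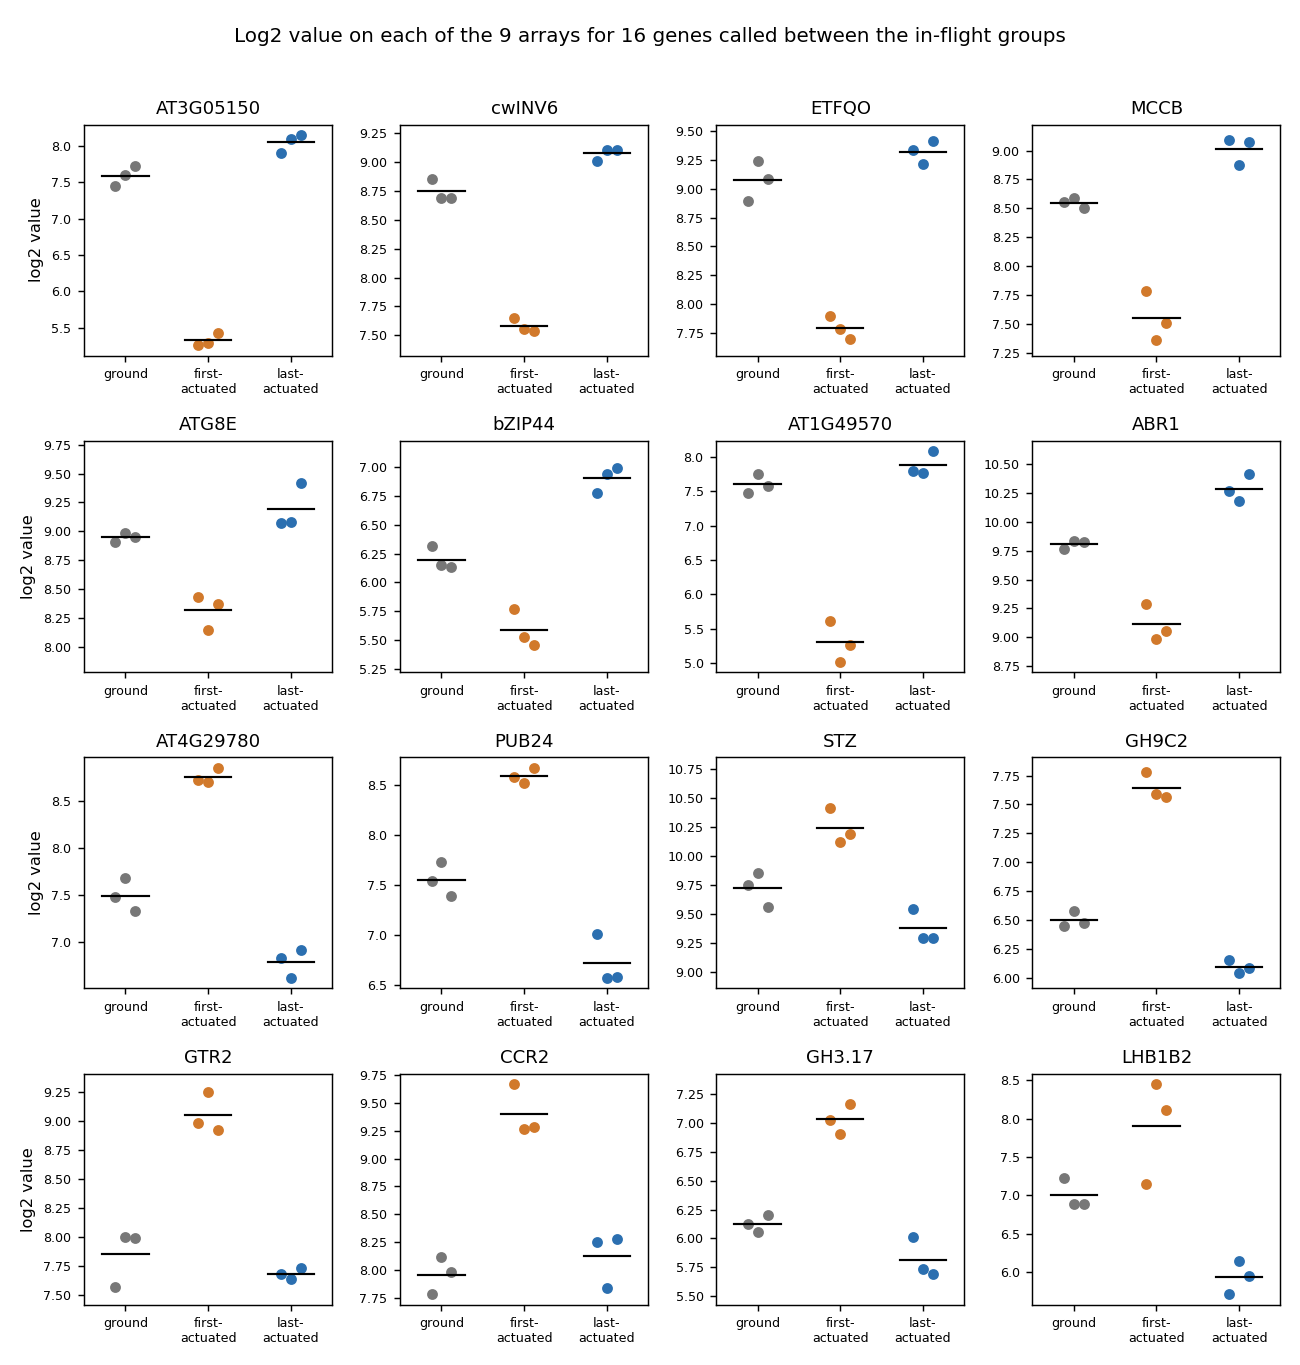
Log2 value on each array (points) and group mean (line) for 16 called genes, with ground in grey, first-actuated in orange and last-actuated in blue. Each panel has its own vertical axis, which does not start at 0. In the panels of AT3G05150, cwINV6, ETFQO, MCCB and AT1G49570 the first-actuated points are the low ones, and in those of GH9C2, GTR2 and CCR2 they are the high ones.

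Transporters and enzymes of sugar handling included the smallest p of all probe sets tested. The ERD6-like family of sugar carriers, several of which export sugar from the vacuole, had 15 measured members. Of these 6 were higher and 0 lower, beside 3.56% called higher over all probe sets, with a median of 0.24. AT3G05150 was at 7.45, 7.60 and 7.72 on the ground arrays, 5.26, 5.29 and 5.42 on the first-actuated arrays and 7.91, 8.10 and 8.15 on the last-actuated arrays. The first-actuated arrays sat about 2 log2 units under every other array, and the last-actuated ones lay slightly above the ground. The difference of 2.72 ± 0.10, or 6.61-fold, had an adjusted p of 2.03e-06. AT1G19450, of the same family, was at 7.57, 8.19 and 7.68 on the ground arrays, 6.85, 6.64 and 7.01 on the first-actuated arrays and 8.54, 8.31 and 8.57 on the last-actuated arrays and differed by 1.64 ± 0.16. Its ground arrays lay between the in-flight groups and overlapped neither first-actuated nor last-actuated arrays. These 2 calls stood in every alternative, and they were the only ones of the 6 that remained without last-actuated replicate 1. The rest were AT3G05165 (0.56 ± 0.12), AT3G20460 (0.58 ± 0.13), AT5G18840 (0.62 ± 0.15) and AT4G04760 (0.63 ± 0.16), the last of them dim in ground and first-actuated roots.

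cwINV6, annotated as a cell wall invertase, a class of enzyme that splits sucrose or fructan outside the cell, was at 8.86, 8.69 and 8.69 on the ground arrays, 7.65, 7.55 and 7.54 on the first-actuated arrays and 9.01, 9.11 and 9.11 on the last-actuated arrays. The groups did not overlap, with first-actuated arrays lowest and last-actuated arrays highest. It was higher by 1.49 ± 0.09, or 2.82-fold (adjusted p = 1.93e-05). Of 16 SWEET genes, which encode sugar uniporters, the vacuolar SWEET16 alone was called, at 0.58 ± 0.12, a share near the 6.72% called over all probe sets. The count was 0 without last-actuated replicate 3. SWEET2, another vacuolar member, differed by 1.14 ± 0.32 and SWEET3 by -1.17 ± 0.31, neither past the test. Of 3 measured tonoplast and vacuolar sugar carriers, listed after the calls had been read, TMT1 was higher (0.35 ± 0.08) and TMT2 lower (-0.55 ± 0.11). Neither call stood without last-actuated replicate 1.

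Some folding genes of the endoplasmic reticulum were called higher in last-actuated roots. Of 12 measured genes of folding and degradation in this compartment, listed after the calls had been read, 5 were higher and 0 lower. That stood beside 3.56% called higher over all probe sets, and the list median was 0.30. A list of genes that respond to unfolded proteins, not among those drawn up after the calls, shares members with it. There 2 of 6 measured genes were higher and 0 lower, with a median of 0.26. ATERDJ3B, a DnaJ partner of the chaperone BiP, was at 7.46, 7.71 and 7.69 on the ground arrays, 7.16, 7.56 and 7.49 on the first-actuated arrays and 8.39, 8.11 and 8.42 on the last-actuated arrays. Here the ground and first-actuated arrays overlapped and the last-actuated arrays were the high ones. The difference was 0.90 ± 0.13 (adjusted p = 0.00306). DER1 and DER2.1 encode Derlins, channel proteins that return misfolded proteins to the cytosol. They were higher by 0.49 ± 0.09 and 0.50 ± 0.09, and the DER1 means were 9.84 on ground, 10.17 on first-actuated and 10.67 on last-actuated arrays. BZIP17, a membrane-bound transcription factor of salt and folding stress, differed by 0.45 ± 0.10, and OS9, a lectin that recognises misfolded glycoproteins, by 0.46 ± 0.11. The calls of ATERDJ3B, DER1 and DER2.1 stood in every alternative. Those of BZIP17 and OS9 were both lost without first-actuated replicate 2 or 3 or last-actuated replicate 1 or 2. BZIP17 was called in 12 of 17 alternatives and OS9 in 6 of 17. OS9 was also lost when any 1 ground array was left out. Not called were CRT1b (0.29), UBC32 (0.31), BIP1 (0.24), BZIP60 (-0.18), DER2.2 (-0.09), BZIP28 (-0.00) and AT5G07340 (0.12).

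Heat shock genes of several compartments, a further list drawn up after the calls had been read, had 3 of 15 members higher and 0 lower, with a median of 0.26. The share called higher over all probe sets was 3.56%. The 1 measured gene of a separate list of HSP70, HSP90 and HSP100 chaperones went the other way, at -0.60, and was not called. SQN, the cyclophilin that works with HSP90, was at 6.14, 5.94 and 6.19 on the ground arrays, 6.65, 6.65 and 6.81 on the first-actuated arrays and 7.53, 7.33 and 7.65 on the last-actuated arrays. Ground, first-actuated and last-actuated arrays formed 3 separate steps upward. It differed by 0.80 ± 0.11 (adjusted p = 0.00207). ATHSP22.0, a small heat shock protein of the endomembrane system, differed by 0.47 ± 0.08, and HSA32, which prolongs acquired heat tolerance, by 0.53 ± 0.10. HSA32 was not called without last-actuated replicate 3, and its gene overlaps or adjoins AT4G21310 and AT4G21323, which were also higher (0.66 and 0.64).

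Short-lived stress transcripts went both ways, with more of them lower in last-actuated roots. In a list of genes that respond within minutes to wounding, touch or cold, 30 were measured. Of these 9 were lower and 5 higher, beside 3.15% and 3.56% over all probe sets, with a median of -0.15. AT4G29780 was at 7.48, 7.68 and 7.33 on the ground arrays, 8.73, 8.70 and 8.86 on the first-actuated arrays and 6.83, 6.62 and 6.92 on the last-actuated arrays. The groups formed 3 separate levels, with first-actuated highest and last-actuated lowest. The difference was -1.97 ± 0.12 (adjusted p = 1.93e-05). STZ, a zinc finger repressor induced by cold, salt and touch, was bright on all arrays, at 9.75, 9.86 and 9.56 on the ground arrays, 10.42, 10.12 and 10.19 on the first-actuated arrays and 9.54, 9.29 and 9.29 on the last-actuated arrays. Its last-actuated arrays did not overlap either of the other groups. STZ differed by -0.87 ± 0.12, and CML37, a calmodulin-like calcium sensor, by -0.52 ± 0.09.

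The neighbouring loci AT4G27652, AT4G27654 and AT4G27657 were all lower, by 1.03 ± 0.13, 2.13 ± 0.15 and 0.97 ± 0.13. Also lower were AT1G18740 (-0.79 ± 0.12), AT5G35735 (-0.65 ± 0.12) and AT3G10930 (-0.92 ± 0.20). AT3G10930 was dim in ground and last-actuated roots, and its call was lost without first-actuated replicate 1 or 2 or last-actuated replicate 2 or 3. ABR1, an ERF transcription factor of wounding and abscisic acid response, went the other way, at 9.76, 9.83 and 9.83 on the ground arrays, 9.29, 8.99 and 9.06 on the first-actuated arrays and 10.27, 10.18 and 10.41 on the last-actuated arrays. Its 3 groups did not overlap, and first-actuated arrays were lowest. ABR1 differed by 1.17 ± 0.10, AT1G77640 by 1.56 ± 0.11, AT1G76600 by 0.58 ± 0.09, AT5G57510 by 0.88 ± 0.19 and AT1G19380 by 0.61 ± 0.13. Of the 14 calls, 11 stood in every alternative, and 12 were made without first-actuated replicate 1 or last-actuated replicate 3.

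Jasmonate, the hormone of wounding, is made from plastid lipids released by lipases. In a list drawn up after the calls had been read, 4 of 10 measured genes of its synthesis and response were lower and 2 higher, with a median of -0.12. DLAH is a lipase gene counted in that list, and its part in the release of plastid lipids was not tested. It was at 4.96, 5.64 and 4.96 on the ground arrays, 5.55, 5.89 and 4.96 on the first-actuated arrays and 3.31, 2.96 and 3.65 on the last-actuated arrays. Here ground and first-actuated arrays overlapped and the last-actuated arrays were the low ones. The difference of -2.16 ± 0.26 amounted to a 4.48-fold higher level in first-actuated roots (adjusted p = 0.00106). OPCL1, which activates a late precursor of jasmonate, was lower by 0.86 ± 0.14, ORA47, an ERF factor that switches on its synthesis genes, by 0.98 ± 0.12, and AT2G30020 by 1.26 ± 0.14. ORA47 was dim in ground and last-actuated roots. AT2G38240 and AT5G05600, both of the oxygenase class that hydroxylates jasmonate, were higher, at 1.28 ± 0.19 and 0.52 ± 0.11. AT5G05600 was not called under the replicate block, and the count was 5 without first-actuated replicates 1 or 2 or last-actuated replicates 1 or 3.

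Among transcription factor families with calls, the bZIP group had 5 of 25 members higher and 0 lower, beside 3.56% higher over all probe sets. Its median was -0.00. bZIP44, of the same low-energy class as BZIP53, was at 6.31, 6.15 and 6.13 on the ground arrays, 5.77, 5.53 and 5.46 on the first-actuated arrays and 6.78, 6.94 and 6.99 on the last-actuated arrays. All 3 groups were separate, with first-actuated lowest and last-actuated highest. It differed by 1.32 ± 0.11, or 2.49-fold (adjusted p = 0.000112). BZIP61 followed at 0.87 ± 0.18 and AT2G40620 at 0.45 ± 0.11. The calls of bZIP44 and BZIP53 were the only 2 that remained without last-actuated replicate 1 or 2. WRKY29, a factor of the flagellin immune response, was at 8.72, 8.95 and 8.95 on the ground arrays, 8.70, 8.31 and 8.56 on the first-actuated arrays and 9.93, 9.72 and 10.06 on the last-actuated arrays, so that last-actuated arrays stood above both other groups. It differed by 1.38 ± 0.13 and WRKY6 by 0.46 ± 0.10, 2 of 7 WRKY genes measured. The call of WRKY6 was lost without first-actuated replicate 1 or without last-actuated replicate 1 or 2.

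Other transcription factor genes called higher were MYBC1, a negative regulator of freezing tolerance (1.33 ± 0.15), tny, an ERF-type factor whose excess stunts growth (1.09 ± 0.19), and HAT2, a homeodomain factor induced by auxin (1.01 ± 0.13). LEP, an ERF-type factor known from leaf petioles and germination, was at 5.10, 4.99 and 5.30 on the ground arrays, 6.16, 6.19 and 6.52 on the first-actuated arrays and 4.42, 4.74 and 4.19 on the last-actuated arrays. Its first-actuated arrays were the high ones, the last-actuated arrays the low ones, and the ground arrays fell between them. LEP was lower by 1.84 ± 0.15 (adjusted p = 0.000122). BIM1, a partner of brassinosteroid-response factors, was lower by 0.59 ± 0.12, a call not made without last-actuated replicate 2 or 3. Also lower was BAT1, an acyltransferase that inactivates brassinosteroid precursors (-1.57 ± 0.14). NAI1, the bHLH factor needed for the beta-glucosidase bodies of the endoplasmic reticulum, was lower by 0.58 ± 0.10, while PYK10, the main enzyme of those bodies, was not called (-0.21).

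The calls among 3 families of proteins that loosen or remodel the cell wall were all downward, and they are to be read against the 3.15% of all probe sets that were lower. Of 19 family 9 cellulases, listed after the calls had been read, GH9C2 and GH9B8 were lower. GH9C2 was at 6.45, 6.57 and 6.47 on the ground arrays, 7.78, 7.59 and 7.56 on the first-actuated arrays and 6.15, 6.04 and 6.08 on the last-actuated arrays. First-actuated arrays were the high ones, and last-actuated arrays lay just under ground. It was lower by 1.55 ± 0.09, with a 2.93-fold higher level in first-actuated roots (adjusted p = 1.93e-05). Of 24 expansins, non-enzymatic wall-loosening proteins, EXPB1 (-1.40 ± 0.14) and EXPB3 (-1.47 ± 0.33) were lower, and of 10 xyloglucan-modifying XTH enzymes XTH19 (-1.10 ± 0.16) and XTH21 (-0.63 ± 0.16). XTH19 was dim in all groups. The medians of these lists were -0.03, -0.07 and -0.15. Their highest members, none of them called, lay at 0.28, 0.81 and 0.84, so members that were not called also went upward. GH9C2, EXPB1 and XTH19 were called in every alternative. GH9B8 (-1.09 ± 0.25) was not called without last-actuated replicate 1, 2 or 3, and EXPB3 without last-actuated replicate 1 or 3. Neither was called with the 6 in-flight arrays alone. XTH21 was not called without ground control replicate 3 or any in-flight array. EXPA7, an expansin of growing root hairs, differed by 0.58 ± 0.15 without passing the test (adjusted p = 0.0527).

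CSLA03, a mannan synthase, was higher (0.86 ± 0.14). CCR2 and HCT of the pathway to lignin were both lower, and they were the sole 2 measured genes of that list, also drawn up afterwards. CCR2, which reduces activated hydroxycinnamic acids, was at 7.78, 8.11 and 7.98 on the ground arrays, 9.67, 9.26 and 9.28 on the first-actuated arrays and 8.25, 7.84 and 8.28 on the last-actuated arrays. Again the first-actuated arrays stood high, and ground and last-actuated arrays overlapped. The differences were -1.28 ± 0.15 for CCR2 and -0.60 ± 0.09 for HCT (adjusted p = 0.000979 and 0.00292). CLE41, the phloem peptide that holds the vascular cambium undifferentiated, was lower by 0.90 ± 0.12, the 1 call among 16 CLE genes, a share near the 6.72% called over all probe sets. Of 17 IQD genes, which encode calmodulin-binding proteins of the cytoskeleton, 2 were lower and 0 higher, with a median of -0.06, and neither was called without first-actuated replicate 2 or last-actuated replicate 2 or 3. The CLE and IQD lists were drawn up after the calls had been read.

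GTR1 and GTR2 load glucosinolates, the sulfur-rich defence compounds of this plant family, into the phloem. GTR2 was at 7.57, 8.00 and 7.99 on the ground arrays, 8.98, 9.26 and 8.92 on the first-actuated arrays and 7.67, 7.64 and 7.73 on the last-actuated arrays, and GTR1 at 5.95, 6.10 and 6.03 on the ground arrays, 7.43, 6.93 and 7.10 on the first-actuated arrays and 5.99, 6.01 and 5.92 on the last-actuated arrays. In both genes the first-actuated arrays lay above all others, and ground and last-actuated arrays overlapped. They were lower in last-actuated roots by 1.37 ± 0.13 and 1.18 ± 0.12 (adjusted p = 0.000302 and 0.000469), in every alternative. Of 13 genes of the same NPF transporter family, listed after the calls had been read, the call of AT2G26690 (-0.47 ± 0.11), was lost without first-actuated replicate 2 or 3 or last-actuated replicate 2 or 3. UGT74B1, which makes the glucosinolate core, was lower by 0.92 ± 0.14. It was the 1 measured gene of 22 in a list of glucosinolate and camalexin synthesis. BGLU28, a beta-glucosidase that sulfur starvation induces and that cleaves glucosinolates, was higher. BGLU28 was at 4.49, 4.71 and 4.60 on the ground arrays, 3.02, 4.13 and 4.00 on the first-actuated arrays and 5.88, 6.32 and 6.05 on the last-actuated arrays, with first-actuated arrays lowest and last-actuated arrays highest. It differed by 2.37 ± 0.25, or 5.17-fold (adjusted p = 0.000474).

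The large enzyme families of root defence and wall oxidation had calls in both directions, to be read against 6.72% called over all probe sets. Of 24 beta-glucosidases 3 were higher and 3 lower: BGLU28, BGLU22 (0.59 ± 0.09) and BGLU16 (0.50 ± 0.10) against BGLU40 (-1.48 ± 0.20), BGLU27 (-1.37 ± 0.18) and BGLU44 (-0.56 ± 0.14). BGLU27 was dim in ground and last-actuated roots. Of 64 class III peroxidases, secreted enzymes that use hydrogen peroxide on wall phenols and were listed after the calls had been read, 7 were higher and 5 lower, with a median of -0.05. AT1G49570 was at 7.48, 7.76 and 7.59 on the ground arrays, 5.61, 5.02 and 5.26 on the first-actuated arrays and 7.81, 7.77 and 8.08 on the last-actuated arrays, so first-actuated arrays were far below ground and last-actuated arrays just above it. It differed by 2.59 ± 0.15, or 6.01-fold (adjusted p = 1.93e-05). AT5G19890 was higher by 1.98 ± 0.16, AT5G39580 by 1.09 ± 0.12 and Prx37 by 0.96 ± 0.11, whereas AT2G39040 was lower by 1.03 ± 0.18. Of the 12 peroxidase calls, 6 stood in every alternative, and 7 were made without first-actuated replicate 3 or without last-actuated replicate 1 or 2. BGLU16 and BGLU44 were both lost without first-actuated replicate 1 or any last-actuated array.

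Tau-class glutathione transferases, which conjugate reactive compounds, had 2 of 11 higher, GSTU22 (0.97 ± 0.14) and GSTU26 (0.86 ± 0.16), and 3 lower, led by GSTU20 (-1.37 ± 0.21). GSTU28 and GSTU18, the remaining lower ones, were not called without first-actuated replicate 3 or without last-actuated replicate 1 or 2. That list, the jacalin-type lectins and the family 19 chitinases were drawn up after the calls had been read. Of 32 jacalin-type lectins 3 were higher and 2 lower. In a shorter list taken by gene symbol, 0 of 5 jacalin-type lectins were higher and 1 was lower. AT5G35940 was at 5.51, 5.08 and 5.75 on the ground arrays, 3.22, 4.31 and 3.58 on the first-actuated arrays and 5.74, 6.42 and 6.32 on the last-actuated arrays, with first-actuated arrays lowest, and differed by 2.45 ± 0.28. AT5G28520 and JAL22 were lower (-1.76 ± 0.27 and -0.80 ± 0.09). Of the 5 lectin calls, 3 stood in every alternative, and 3 were made without last-actuated replicate 2 or 3 or any first-actuated array. Of 9 family 19 chitinases AT1G56680 (2.00 ± 0.20) and AT2G43610 (0.60 ± 0.12) were higher and AT3G47540 (-0.91 ± 0.11) lower. UGT76B1, which glycosylates immune signals of the isoleucic acid and salicylate class, was higher by 0.69 ± 0.11, one of 5 calls among 55 UDP-glycosyltransferases, a share near the 6.72% called over all probe sets. Of those 5, 2 remained without last-actuated replicate 3.

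PUB24, a U-box ubiquitin ligase that dampens immune signalling, was at 7.54, 7.73 and 7.39 on the ground arrays, 8.58, 8.53 and 8.68 on the first-actuated arrays and 7.01, 6.57 and 6.58 on the last-actuated arrays. The 3 groups did not overlap, with first-actuated highest. PUB24 was lower by 1.88 ± 0.13 (adjusted p = 4.89e-05), and PUB19, of the same family of 10, by 1.08 ± 0.15. PUB19 was dim in ground and last-actuated roots. EULS3, a lectin of the stomatal and abscisic acid response, was lower by 1.30 ± 0.10. The defensin-like gene LCR35 was higher by 2.26 ± 0.24 but was dim in first-actuated roots, and PDF2.1 was lower by 1.33 ± 0.34. Those were the 2 calls among 73 defensins and defensin-like genes, a share under the 6.72% called over all probe sets. On ground, 63 of the 73 were dim. Without any ground array, without first-actuated replicate 3 or without any last-actuated array, PDF2.1 was not called.

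In the lists of auxin and of abscisic acid response the calls went both ways, and medians lay near 0. Against 6.72% called over all probe sets, 3 of 12 auxin-response genes were called: HAT2 was higher, and GH3.17 and GH3.3 were lower. The median was -0.06. GH3.17 attaches auxin to glutamate and was at 6.12, 6.05 and 6.21 on the ground arrays, 7.03, 6.90 and 7.16 on the first-actuated arrays and 6.01, 5.74 and 5.69 on the last-actuated arrays. Its first-actuated arrays were the high ones. GH3.17 was lower by 1.22 ± 0.11 (adjusted p = 0.000192). GH3.3, a relative induced by auxin, ran down from ground through first-actuated to last-actuated roots, at 9.24, 8.72 and 8.44 on the ground arrays, 7.38, 6.72 and 7.10 on the first-actuated arrays and 6.45, 6.19 and 5.93 on the last-actuated arrays. It was lower by 0.88 ± 0.22 (adjusted p = 0.0445), and the call was lost without ground control replicate 2, without first-actuated replicate 1 or 3 and without any last-actuated array. Of 8 measured genes of abscisic acid and dehydration 3 were called, with a median of 0.02. AT3G02480 was lower by 2.74 ± 0.24, KIN1, a cold-induced protective protein, was lower by 0.63 ± 0.12, and AT2G41190 was higher by 0.65 ± 0.13. AT3G02480 was at 4.29, 4.21 and 5.04 on the ground arrays, 6.34, 6.18 and 6.26 on the first-actuated arrays and 4.00, 3.14 and 3.41 on the last-actuated arrays, with first-actuated arrays above all others. XERICO, a RING protein that raises abscisic acid, was lower by 0.67 ± 0.10. The call of AT2G41190 was lost without last-actuated replicate 2 or 3.

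Of 18 measured core hypoxia genes, 3 were higher and 0 lower: AT4G39675 (1.82 ± 0.17), AT1G76600 and AT1G19530 (0.89 ± 0.21). The share called higher over all probe sets was 3.56%. The median of the hypoxia list was 0.04, and AT1G19530 was not called without first-actuated replicate 2 or 3 or last-actuated replicate 1 or 3. None of 6 measured genes of gravity signalling was called by limma, 1 of them had an unadjusted p under 0.05, and their differences lay between -0.33 and 0.23.

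**Figure D3:**
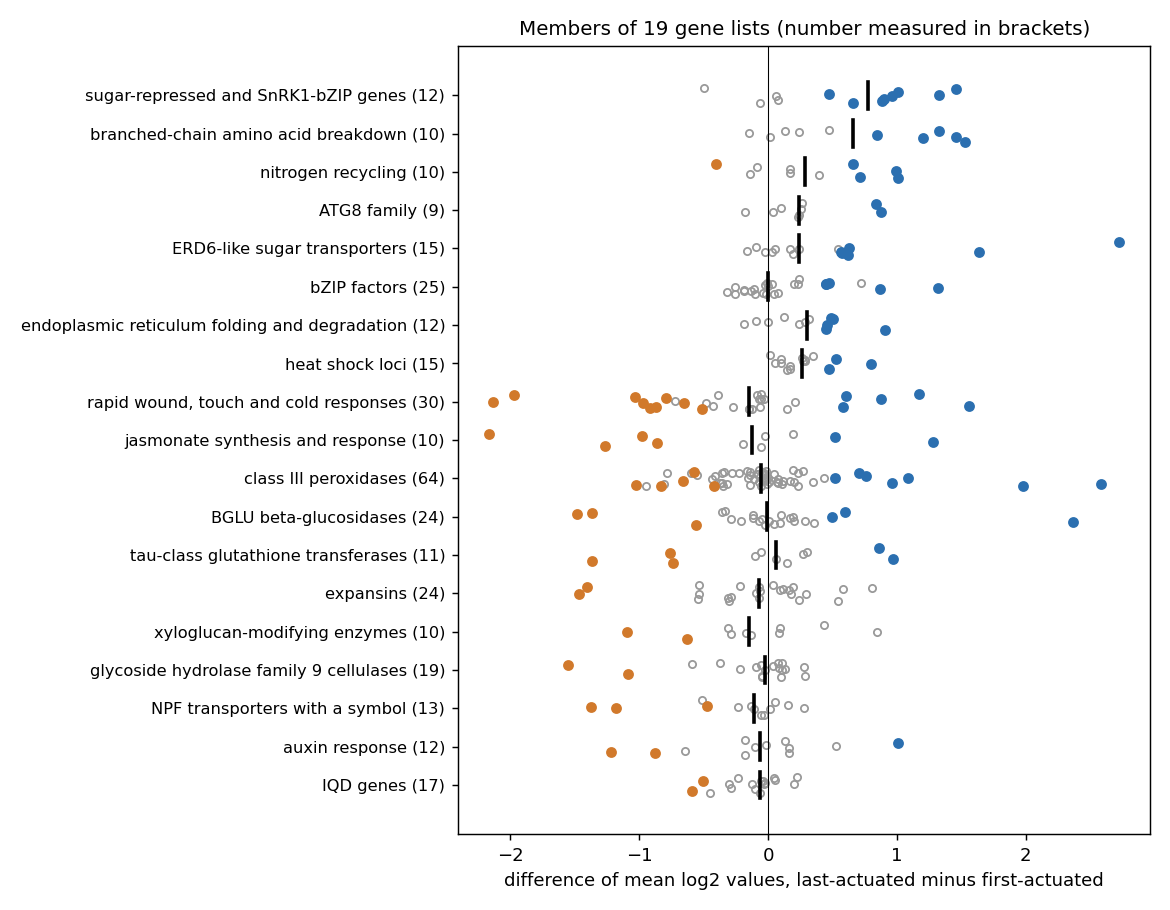
Difference of mean log2 values, last-actuated minus first-actuated, for each measured member of 19 gene lists (points, scattered vertically within a row), with the list median as a black bar. Members called higher are blue, called lower orange and not called open grey. The sugar-repressed, branched-chain breakdown and ERD6-like lists hold blue and no orange points, and the expansin, XTH, cellulase and NPF lists hold orange and no blue points.

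Several of the largest differences were in genes that the annotation names only by locus. Of the decreases, AT3G01260 was at 4.14, 4.83 and 3.77 on the ground arrays, 5.98, 6.42 and 6.51 on the first-actuated arrays and 3.68, 3.27 and 3.26 on the last-actuated arrays. First-actuated arrays exceeded every other array by more than a log2 unit. It was lower by 2.90 ± 0.25, a 7.47-fold difference (adjusted p = 0.000142). AT5G03890 was at 4.47, 4.56 and 4.65 on the ground arrays, 7.13, 6.62 and 6.56 on the first-actuated arrays and 3.90, 4.36 and 4.25 on the last-actuated arrays, with first-actuated arrays high and last-actuated arrays just under ground, and was lower by 2.60 ± 0.16. AT1G14640, AT1G49450, AT5G35110, AT5G44350, AT2G29452 and AT1G26730 followed, lower by 1.91 to 2.07.

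Of the increases, AT5G23350 was at 6.86, 6.99 and 6.72 on the ground arrays, 5.29, 4.70 and 5.53 on the first-actuated arrays and 7.70, 7.47 and 7.08 on the last-actuated arrays. The first-actuated arrays were again the ones apart. It was higher by 2.25 ± 0.21. AT5G26740 was at 9.35, 9.55 and 9.25 on the ground arrays, 7.79, 7.97 and 7.96 on the first-actuated arrays and 9.65, 9.79 and 9.89 on the last-actuated arrays, again with the first-actuated arrays apart, and was higher by 1.87 ± 0.11 (adjusted p = 1.93e-05). AT3G61898 was higher by 1.95 ± 0.27. AT5G41300, at 1.83 ± 0.42, had the widest spread of the large increases, from 2.53 to 3.73 on first-actuated and 4.35 to 5.86 on last-actuated arrays, and its call was lost without first-actuated replicate 1 or 3 or last-actuated replicate 2 or 3.

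In a minority of called genes the last-actuated roots were the ones away from ground. AT3G17400 was at 2.81, 3.11 and 2.77 on the ground arrays, 3.10, 3.09 and 3.40 on the first-actuated arrays and 5.29, 4.98 and 5.28 on the last-actuated arrays. Ground and first-actuated arrays overlapped at a dim level and the last-actuated arrays lay above them. It was higher by 1.99 ± 0.13 (adjusted p = 4.24e-05). AT2G44380 was at 4.69, 4.77 and 4.33 on the ground arrays, 4.17, 4.39 and 4.17 on the first-actuated arrays and 6.08, 5.71 and 6.20 on the last-actuated arrays and differed by 1.75 ± 0.15. Downward, AT2G36690 was at 6.33, 6.46 and 6.65 on the ground arrays, 6.63, 5.89 and 6.14 on the first-actuated arrays and 4.93, 4.32 and 4.63 on the last-actuated arrays, where ground and first-actuated arrays overlapped. It was lower by 1.59 ± 0.20. AT3G49330 (-1.52 ± 0.24) and AT2G37800 (1.21 ± 0.24) showed the same kinds of pattern, the last of them not called without first-actuated replicate 3 or last-actuated replicate 3.

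A smaller set had ground beyond the first-actuated mean, so that both in-flight means lay on 1 side of the ground mean and the last-actuated further out. AT1G14205 was at 6.37, 5.96 and 5.98 on the ground arrays, 6.76, 6.68 and 6.81 on the first-actuated arrays and 8.20, 8.18 and 8.11 on the last-actuated arrays, in 3 separate steps upward. It differed from first-actuated to last-actuated roots by 1.41 ± 0.11. AT3G48540 (1.02 ± 0.15), SQN and AT1G50110 were of this kind, and so was SAY1 (0.52 ± 0.11, not called without last-actuated replicate 1 or 3). On the falling side were AT1G55990 (-1.20 ± 0.16) and GH3.3. UGT73B3 (-0.81 ± 0.16, not called without first-actuated replicate 3 or last-actuated replicate 3) lay there too. First-actuated roots were not called against ground for AT1G55990 or UGT73B3 (limma adjusted p = 0.312 and 0.337). For UGT73B3 the ground and first-actuated arrays overlapped.

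The reverse order, with ground beyond the last-actuated mean, held for genes whose first-actuated mean was furthest from ground and whose last-actuated mean was nearer to it. ASPGB1 was at 8.65, 9.28 and 8.63 on the ground arrays, 7.80, 7.51 and 7.46 on the first-actuated arrays and 8.49, 8.47 and 8.84 on the last-actuated arrays. Its ground and last-actuated arrays overlapped. KIN1 was at 5.26, 4.86 and 4.85 on the ground arrays, 6.59, 6.45 and 6.47 on the first-actuated arrays and 5.90, 5.86 and 5.85 on the last-actuated arrays, high in both in-flight groups and less so in the last. AT1G53340, AT3G29639 and AT1G58320 were on average lower than ground in both, and their differences were 1.01 ± 0.20, 1.00 ± 0.21 and 1.00 ± 0.15. The calls of AT1G53340 and AT3G29639 were both lost without last-actuated replicate 1 or last-actuated replicate 3, among other arrays.

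In 19 genes the in-flight groups were called against ground in opposite directions, and the difference between them was called as well. In 9 of these the first-actuated roots were above ground and the last-actuated roots below it, and in 10 the order was the reverse. The contrasts with ground use the same 3 ground arrays and are not independent. The first set held AT4G27654, AT4G29780, PUB24 and EULS3 from the groups above. It also held AT5G65990, AT5G47530, AT4G17280, AT3G57010 and AT3G56080. AT5G65990 was at 5.65, 5.51 and 5.44 on the ground arrays, 6.65, 6.52 and 6.32 on the first-actuated arrays and 4.76, 4.30 and 4.69 on the last-actuated arrays, so the mean differences from ground were 0.96 for the first-actuated and -0.95 for the last-actuated group.

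The second set held bZIP44, ABR1, LCR35, AT1G77640, AT3G15630, AT4G39675, AT5G39580, AT5G06570, AT2G26370 and AT2G23960. AT5G06570 was at 6.91, 6.89 and 6.91 on the ground arrays, 6.17, 5.83 and 6.03 on the first-actuated arrays and 7.76, 7.50 and 7.78 on the last-actuated arrays, with the ground arrays almost identical. Its mean differences from ground were -0.89 for the first-actuated and 0.77 for the last-actuated group. No array of one in-flight group crossed the ground mean toward the other group in any of the 19.

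**Figure D4:**
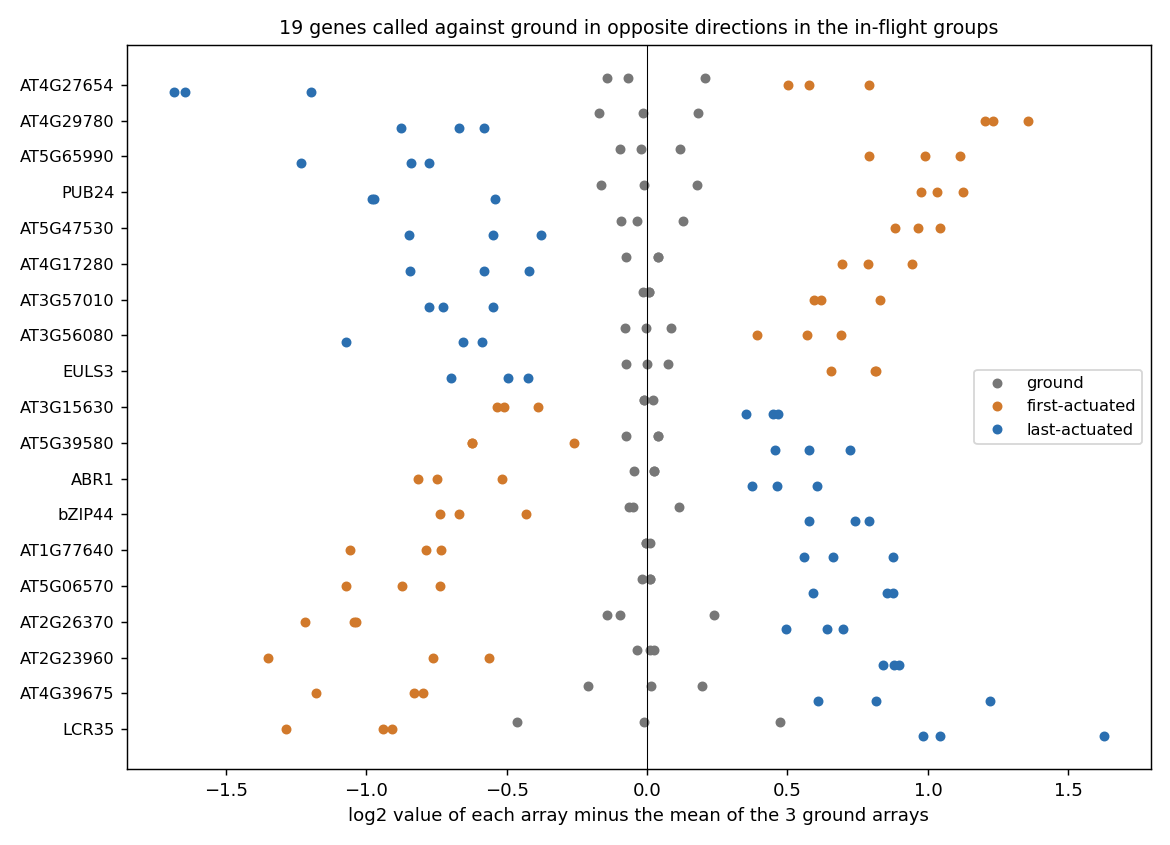
Log2 value of each array minus the mean of the 3 ground arrays for the 19 genes called against ground in opposite directions, with ground in grey, first-actuated in orange and last-actuated in blue. In the upper 9 genes the orange points lie right of 0 and the blue points left, and in the lower 10 the order is reversed.

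Called genes were sometimes neighbours on the chromosome. Of 933 called loci with a measured adjacent protein-coding locus, 79 (8.47%) had one called in the same direction. Among 12983 loci that were not called, 4.94% adjoined a locus called higher and 4.31% one called lower. There were 35 runs of adjacent loci, 9 of them of 3 loci, and 5 runs contained overlapping genes. The runs of 3 included AT5G41280, AT5G41290 and AT5G41300 (1.57, 1.57 and 1.83), AT5G23340, AT5G23350 and AT5G23360 (0.66, 2.25 and 0.98) and AT3G23175, AT3G23180 and AT3G23190 (1.22, 0.93 and 0.89). Another was the lower run of AT4G27652, AT4G27654 and AT4G27657. Whether probes of such neighbours take up each other's transcripts was not tested.

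Shoot tissue was checked through 5 measured shoot markers of 17 listed, beside 5 of 22 root markers. PYK10, a root-specific beta-glucosidase, lay at 12.09 to 12.45 on the 9 arrays. Of the 5 root markers 0 were called, beside 6.72% called over all probe sets. EXPA7 differed most of them, by 0.58 ± 0.15 (limma adjusted p = 0.0527), and its in-flight arrays did not overlap. The other root markers differed by -0.21 to 0.20. The stomatal lineage genes FMA, MUTE and SPCH were dim in all groups. RCA, the activase of the carbon-fixing enzyme, was at 8.06, 8.17 and 8.00 on the ground arrays, 8.41, 8.28 and 8.28 on the first-actuated arrays and 8.42, 8.28 and 8.32 on the last-actuated arrays and was not called between the in-flight groups, at a difference of 0.02 ± 0.09. LHB1B2, a light-harvesting protein of the chloroplast, was called. It was at 7.22, 6.89 and 6.88 on the ground arrays, 7.15, 8.45 and 8.11 on the first-actuated arrays and 5.71, 6.15 and 5.95 on the last-actuated arrays, so the first-actuated arrays ranged widely while the last-actuated arrays were all lower. It was lower by 1.96 ± 0.28 (adjusted p = 0.00224), in every alternative.

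The summed log2 level of the 5 shoot markers was 22.04 to 23.14 on first-actuated, 20.53 to 20.94 on last-actuated and 20.99 to 21.58 on ground arrays. LHB1B2 carried the gap between the in-flight groups: the other 4 shoot markers differed by -0.03 to 0.06, and 3 of them were dim. The sum of the 5 root markers was 34.45 to 34.60, 33.81 to 35.54 and 34.77 to 35.48 in the same order. Of 26 light-harvesting and photosystem genes, which include chloroplast-encoded ones, PSAN was higher (0.76 ± 0.12) and, beside LHB1B2, PSBW was lower (-0.71 ± 0.14), and the median was -0.09. PSBW was not called without first-actuated replicate 1 or 3 or last-actuated replicate 2 or 3. The part of shoot tissue in the other differences was not tested.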

How the data were processed

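Whole-root RNA of 9 root pools, 3 in each group, was hybridised to Arabidopsis gene arrays. The authors deposited 1 table of log2 values for 38408 probe sets. The submitters' processing notes name RMA (background correction, quantile normalisation and summary of probes), oligo, limma, R 4.0.0 and TAIR10. Array medians lay between 3.27 and 3.35. Arrays have no read depth, and 3 arrays a group limit the precision.

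The deposited log2 values were fitted with limma 3.58.1 in R 4.3.3 (lmFit, eBayes) on all 9 arrays with a mean per group. Benjamini-Hochberg adjustment ran over the 17481 probe sets that the platform annotation pairs with at least 1 gene, and calls were made at an adjusted p under 0.05. Those with exactly 1 gene, 16722, were described, and symbols were updated from RefSeq for 16574 of them. Differences are last-actuated minus first-actuated on the log2 scale, ± SE. Named genes were the 15 largest called changes per direction, the 4 largest per class of ground position and direction, up to 4 members of smallest p per list, and genes called against ground in opposite directions. Beyond these rules, every called list member and every called probe set with a gene symbol (153) was added to the named set. Other list members and neighbouring loci were named after their values were seen. The members and lists were chosen with earlier results of these data known. Lists said to be drawn up after the calls carry no test and support nothing. Where a gene had several probe sets (154 genes), each was tested. Alternatives changed the arrays, scaling, filters, variance prior, weights and probe sets fitted, and added a replicate block. The code was tested on simulated data. Promoter motifs were not searched, as no sequence was used here.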

Additional observations from a re-analysis of the deposited data

Results flagged for a closer look

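In 19 genes the first-actuated and last-actuated roots were called on opposite sides of ground, and limma called the difference between them. Values are last-actuated minus first-actuated log2 means. Above ground first and below it last were AT4G27654 (-2.13), AT4G29780 (-1.97), AT5G65990 (-1.91), PUB24 (-1.88), AT5G47530 (-1.55), AT4G17280 (-1.42), AT3G57010 (-1.365), AT3G56080 (-1.32) and EULS3 (-1.30). In the reverse order were AT3G15630 (0.90), AT5G39580 (1.09), ABR1 (1.17), bZIP44 (1.32), AT1G77640 (1.56), AT5G06570 (1.67), AT2G26370 (1.71), AT2G23960 (1.76), AT4G39675 (1.82) and LCR35 (2.26). All 19 differences were called in every alternative that fitted the gene. The contrasts with ground share the ground arrays, and tube and group cannot be told apart.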

How the results depend on the processing

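The 1123 calls between the in-flight groups ranged from 689 to 1064 when 1 array was left out. They numbered 991 with the replicate block, 821 with the 6 in-flight arrays alone, 820 with all probe sets fitted, 1264 without dim probe sets and 1199 with each array centred on its median. Centring moved the median difference over all probe sets fitted from -0.00125 to 0.0341 and the split of higher to lower from 596 and 527 to 713 and 486. The count of ground means near the last-actuated mean, 376, ranged from 223 to 423 when 1 array was left out. It was 338 with the replicate block and 221 when near meant within 0.15 of the distance in place of 0.25, a narrower zone by construction. The replicate numbers did not pair the samples: deviations of same-numbered first-actuated and last-actuated arrays correlated at 0.05, 0.06 and -0.02. Of 241 called genes in the named set, additions included, 137 were called in every alternative that fitted them and 0 changed direction. Without last-actuated replicate 3, 158 were called, and with the 6 in-flight arrays alone 180 were called. The losses given above for single genes do not list every alternative in which a call was lost. The cause of the losses was not tested, beyond fewer arrays being fitted. Dim probe sets limit the sizes of their differences.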
